A study of Arabidopsis thaliana with 12 samples.

Results

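The comparison described here set 3 arrays of the double mutant phyB-77 bri1-5 against 3 arrays of its wild type, Wassilewskija-2 (Ws-2), 6 of the 12 arrays in the series. The members are all arrays that the sample labels give for these 2 genotypes, and every probe set of the array other than the 64 controls was tested, 22746 in all. RNA came from whole Arabidopsis seedlings after 7 days of growth in continuous red light on agar with MS salts. The labels give this age throughout, whereas the study's text is not uniform on it. All plants were in the Ws-2 background. phyB-77, also named gul2-1, is a mutation of the photoreceptor gene PHYB recovered after chemical mutagenesis, and bri1-5 is a weak allele of the brassinosteroid receptor gene BRI1, and the double mutant carries both. Each single mutant has 3 arrays in the same series, and their values are set beside those of the double mutant where they help. The study used the arrays to list genes controlled by both light and brassinosteroids (BRs), as part of wider work on how light acts on BR signalling. No probe set carries the name PHYB or BRI1 in the annotation used, so the targeted genes themselves could not be read on these arrays.

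Phytochrome B is a receptor that red light switches into an active form, in which it enters the nucleus, triggers the loss of PIF transcription factors and restrains the elongation of the stem. BRI1 is a receptor kinase at the cell surface that binds BRs and, through a chain of kinases and phosphatases, releases the transcription factors BZR1 and BES1, which promote cell elongation. Seedlings without phytochrome B are long, and seedlings with a weak BRI1 are short, so that the double mutant joins mutations of opposite effect on growth.

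The double mutant differed from the wild type at 3311 of 22746 probe sets (14.6%) by limma with Benjamini-Hochberg adjustment at an adjusted p under 0.01. Of these, 1489 (6.55% of all probe sets) were higher and 1822 (8.01%) were lower. Falls were more numerous and rises were larger. The median log2 fold change, always double mutant minus Ws-2, was 0.64 among the probe sets called higher and -0.57 among those called lower, against -0.02 over all probe sets. More than 4-fold changes were found at 136 probe sets that rose and 19 that fell, and more than 8-fold changes at 45 that rose and 0 that fell. The largest rise was 4.28 and the largest fall was -2.91. The arrays of a genotype lay close together, with a Pearson correlation across probe sets of 0.996 to 0.997 within Ws-2 and of 0.998 within the double mutant, against 0.982 to 0.984 between both genotypes, and the median standard error of a difference was 0.10. In whole seedlings, fewer cells of a type and less RNA per cell cannot be told apart. The arrays of both genotypes did not overlap at 43.4% of all probe sets, a background for the statements on overlap below.

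**Figure D1:**
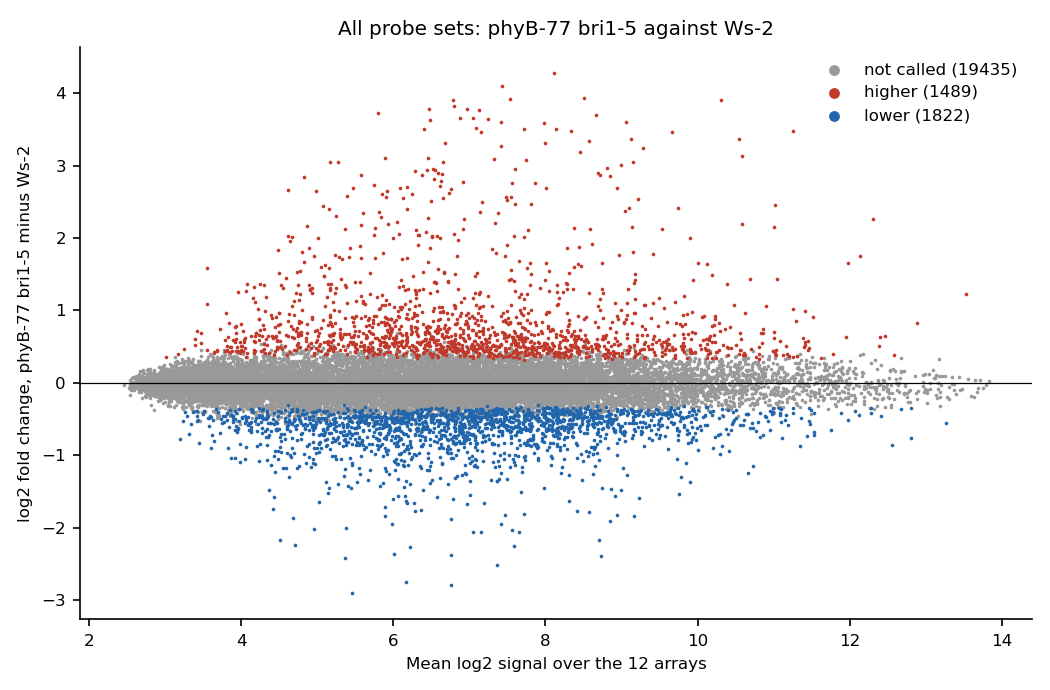
Each point is 1 of 22746 probe sets, placed by its mean log2 signal over the 12 arrays (horizontal) and its log2 fold change between phyB-77 bri1-5 and Ws-2 (vertical). The 1489 red points passed the test upward and the 1822 blue points downward, and the red points reach 4.28 while the blue points reach -2.91.

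The gene lists used below could be read only in part, because a probe set was given a gene only where a single name was on hand. The platform annotation named 13513 probe sets, of which 12.4% were called (6.17% higher and 6.25% lower), and gene tables of the study named a further 1295, of which 48.1% were called (29.5% higher and 18.6% lower). Those tables were drawn up by the study from these same arrays, so that list members named through them are not independent evidence of a direction, and counts for annotation-named members are given beside the totals of the lists described at length. With 1 probe set per named gene, 2287 of 14649 genes (15.6%) were called, 1214 (8.29%) higher and 1073 (7.32%) lower. The remaining 7938 probe sets had no single name. There the double mutant was higher at 273 (3.44%) and lower at 737 (9.28%), so that falls outnumbered rises there. Among probe sets named by the annotation 834 were higher and 844 lower, and 382 were higher and 241 lower among those named only through the study's tables.

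Few tissue markers could be named. The leaf marker that could be read had a mean log2 signal of 13.78 in Ws-2 and 13.71 in the double mutant, and 10 root and root hair genes ranged from 5.26 to 12.98 and from 5.30 to 12.89. Of the shoot epidermis list, the stomatal lineage genes TMM and FAMA could be read. TMM measured 6.87, 7.04 and 7.00 in Ws-2 and 6.59, 6.56 and 6.49 in phyB-77 bri1-5 (-0.43 ± 0.10, adjusted p = 0.004), and FAMA measured 5.96, 5.78 and 5.54 in Ws-2 and 5.34, 5.42 and 5.35 in phyB-77 bri1-5 (-0.39 ± 0.14, adjusted p = 0.054), so that TMM fell and FAMA did not pass the test, without overlap of arrays in either. The call of TMM was lost without any of the 6 arrays but Ws-2 replicate 1, with log2 fold changes of -0.48 to -0.39 over the 6 fits. Means of the vascular markers were 7.44 and 9.36 in Ws-2 and 7.29 and 9.10 in the double mutant. The signal of the meristem gene CLV3 was near the bottom of the range in both, at 3.76 and 3.73.

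Among the 12 named genes with the largest rises, 7 belong to the lists for heat, seed maturation, chlorophyll synthesis or plastid genes. HSP17.6A, a small heat shock protein of the cytosol, had log2 signals of 6.30, 6.29 and 6.22 in Ws-2 and 10.45, 10.53 and 10.67 in phyB-77 bri1-5 (4.28 ± 0.09, adjusted p = 1.6e-15). EM6, a late embryogenesis abundant (LEA) protein that protects the drying embryo, measured 5.41, 5.26 and 5.25 in Ws-2 and 9.60, 9.36 and 9.29 in phyB-77 bri1-5 (4.11 ± 0.10, adjusted p = 2.3e-15). In each the double mutant arrays stood far above the Ws-2 arrays, and the spread within a genotype was a small part of the gap. At3g15670, another LEA protein gene, was at 5.01, 4.93 and 4.84 in Ws-2 and 8.89, 8.89 and 8.75 in phyB-77 bri1-5 (3.92 ± 0.10, adjusted p = 5.2e-15), and the dehydrin gene At2g21490 was at 4.81, 4.57 and 4.32 in Ws-2 and 8.54, 8.48 and 8.41 in phyB-77 bri1-5 (3.91 ± 0.12, adjusted p = 2.6e-14). ECP63 (3.79 ± 0.12, adjusted p = 5.8e-14) and EM1 (3.78 ± 0.15, adjusted p = 9.7e-13) also encode LEA proteins. In EM1 the 3 Ws-2 arrays were spread from 4.50 to 5.21, whereas the double mutant arrays lay between 8.63 and 8.70. GASA3 and GASA2, small secreted peptides of a family first known for its response to gibberellin, rose together. GASA3 measured 5.40, 5.09 and 4.42 in Ws-2 and 8.83, 8.76 and 8.79 in phyB-77 bri1-5 (3.82 ± 0.18, adjusted p = 1.2e-11), and its Ws-2 arrays were the most uneven of the 12 genes. GASA2 changed by 3.73 ± 0.10, adjusted p = 5.2e-15. ATOEP16-2, a channel of the outer plastid envelope, rose by 3.77 ± 0.14, adjusted p = 2e-13, and At1g54870 by 3.69 ± 0.11, adjusted p = 2.2e-14. The remaining leading rises, PORA and rpl16, are described with their groups. The 12 genes were picked from probe sets without overlap between both genotypes, so that the lack of overlap was fixed by the choice.

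**Figure D2:**
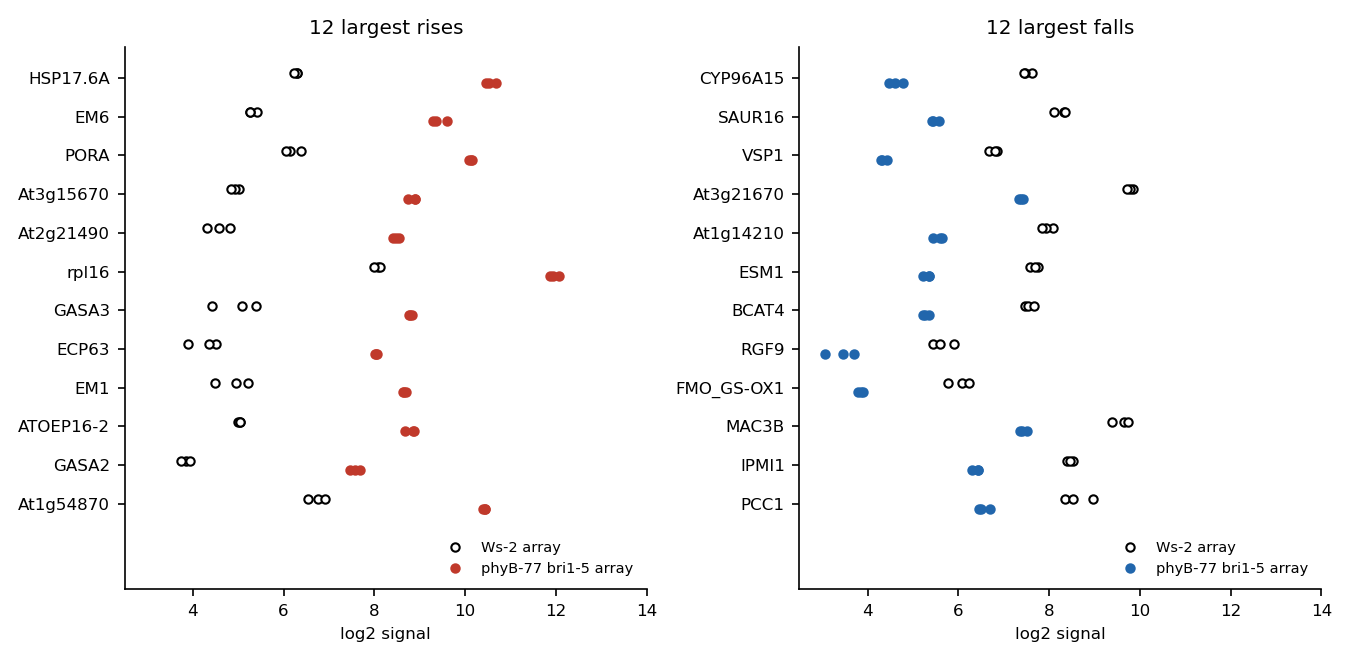
Log2 signal (horizontal) of every Ws-2 array (open circles) and every phyB-77 bri1-5 array (filled circles) for the 12 largest rises (left) and the 12 largest falls (right) among named genes. In all 24 genes the 3 arrays of one genotype lie apart from the 3 of the other, which was a condition of their choice.

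Storage and oil body genes of the seed were higher in the 7-day-old double mutant seedlings than in the wild type. Of 20 listed genes, all of them named, 18 were higher and 1 was lower, with a median log2 fold change of 2.89 (5 of the 5 named by the annotation were higher). CRC, which encodes a cruciferin, the globulin storage protein of the embryo, had log2 signals of 9.39, 9.53 and 9.49 in Ws-2 and 12.95, 13.00 and 12.90 in phyB-77 bri1-5 (3.48 ± 0.08, adjusted p = 2.3e-15). The double mutant arrays were bright, and in Ws-2 the gene was already well above the array median. OLEO2, an oleosin that coats oil bodies, measured 7.18, 7.22 and 7.46 in Ws-2 and 11.04, 10.89 and 10.73 in phyB-77 bri1-5 (3.6 ± 0.10, adjusted p = 1.2e-14). HSD1, a steroleosin of the oil body surface, measured 6.37, 6.45 and 6.23 in Ws-2 and 9.75, 9.91 and 9.93 in phyB-77 bri1-5 (3.51 ± 0.11, adjusted p = 4.2e-14). All 3 genes were far from overlap. The 2S albumin genes did not move as 1 group. SESA2 (3.47 ± 0.11, adjusted p = 6.2e-14) and SESA5 (3.13 ± 0.10, adjusted p = 2.8e-14) rose, SESA4 had 0.38 (adjusted p = 0.032), and SESA1 fell, with 5.51, 5.55 and 5.21 in Ws-2 and 4.71, 4.91 and 4.93 in phyB-77 bri1-5 (-0.57 ± 0.11, adjusted p = 0.0011). The call of SESA1 was lost without phyB-77 bri1-5 replicate 1, where the log2 fold change was -0.50.

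The list of late embryogenesis and abscisic acid (ABA) response genes divided into members that rose strongly and members that did not. Of 26 named genes out of 31 listed, 20 were higher, 3 were lower and 3 did not pass the test, with a median of 2.12 (9 higher and 2 lower of the 12 named by the annotation). Besides the LEA genes above, PER1, a peroxiredoxin of dormant seeds, measured 7.61, 7.53 and 7.57 in Ws-2 and 10.58, 10.64 and 10.62 in phyB-77 bri1-5 (3.05 ± 0.08, adjusted p = 9.4e-15), and M10, a small protein of maturing seeds, rose by 3.11 (adjusted p = 4e-14). COR15A (-0.87 ± 0.09, adjusted p = 1.2e-06), COR15B (-0.84 ± 0.10, adjusted p = 4.5e-06) and RD22 (-0.77 ± 0.09, adjusted p = 3.9e-06) were the 3 that fell, and all 3 are also known to respond to cold or drought in leaves. RAB18 (3.24 ± 0.10, adjusted p = 4.6e-14) and RD29B (0.88 ± 0.10, adjusted p = 1.8e-06), known to respond to ABA and drought there, rose. RD29A measured 9.46, 9.49 and 9.48 in Ws-2 and 9.77, 9.61 and 9.60 in phyB-77 bri1-5 (0.18 ± 0.10, adjusted p = 0.2), ERD10 had -0.09 (adjusted p = 0.59) and COR47 had -0.22 (adjusted p = 0.22). ABI3, the transcription factor that drives embryo maturation and the one embryo regulator of the 4 listed that could be named, had low signals of 4.15, 3.72 and 3.80 in Ws-2 and 4.53, 4.44 and 4.55 in phyB-77 bri1-5 (0.62 ± 0.12, adjusted p = 0.00079). It rose by far less than most of the seed storage and oil body genes (median 2.89), and the part that seed or embryo cells had in these values was not tested.

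Nearly all heat shock genes that could be named were higher. All 10 named small heat shock protein genes, chaperones that hold unfolding proteins, passed the test upward (6 of 6 named by the annotation), with log2 fold changes from 0.74 to 4.28 and a median of 2.38, against 8.29% of named genes called higher. HSP17.4 measured 5.45, 5.14 and 4.97 in Ws-2 and 8.80, 8.84 and 8.89 in phyB-77 bri1-5 (3.66 ± 0.12, adjusted p = 4.6e-14). HSP17.6C measured 3.98, 3.76 and 3.67 in Ws-2 and 6.86, 6.96 and 6.73 in phyB-77 bri1-5 (3.04 ± 0.12, adjusted p = 6.9e-13). Both genes were dim in Ws-2 and well above it on all 3 double mutant arrays. The smallest rise was that of HSP23.5, a mitochondrial member, at 5.83, 5.52 and 5.24 in Ws-2 and 6.01, 6.29 and 6.50 in phyB-77 bri1-5 (0.74 ± 0.14, adjusted p = 0.00081), where the Ws-2 arrays were spread over much of the gap. Of 10 named genes for larger chaperones and heat regulators, 8 rose and none fell, with a median of 0.98 (1 of the 2 named by the annotation was higher). HSFA2, a heat shock factor, measured 4.05, 3.63 and 3.80 in Ws-2 and 5.96, 5.75 and 5.84 in phyB-77 bri1-5 (2.03 ± 0.11, adjusted p = 1.1e-10). HSP101, which pulls proteins out of aggregates, rose by 1.23 (adjusted p = 5.3e-08), and HSP70B by 1.79 (adjusted p = 2.2e-10). HSP70-4 (0.33, adjusted p = 0.053) and ROF2 (0.25, adjusted p = 0.15), a co-chaperone, did not pass the test.

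Genes of chlorophyll synthesis and early greening gave a few large rises and little else. PORA, the protochlorophyllide oxidoreductase that is abundant in etiolated seedlings and that light represses, measured 6.15, 6.06 and 6.38 in Ws-2 and 10.08, 10.14 and 10.16 in phyB-77 bri1-5 (3.93 ± 0.10, adjusted p = 5.2e-15). Its relative PORB, which stays active in the light, measured 12.17, 12.06 and 12.20 in Ws-2 and 12.79, 12.78 and 12.76 in phyB-77 bri1-5 (0.64 ± 0.08, adjusted p = 1.7e-05). PORA rose more than 4-fold and PORB less than 2-fold (1 higher and none lower of the 5 pathway genes named by the annotation), and the remaining 4 named genes of the pathway (CHLM, HEMA2, HEMB1 and GSA1) lay between -0.31 and 0.18 without passing the test. ELIP1 and ELIP2, thylakoid proteins made when light is in excess or just after greening begins, were at 7.37, 7.84 and 7.87 in Ws-2 and 9.48, 9.47 and 9.55 in phyB-77 bri1-5 (1.81 ± 0.13, adjusted p = 3.5e-09) and 6.80, 6.74 and 6.95 in Ws-2 and 8.91, 8.99 and 8.95 in phyB-77 bri1-5 (2.12 ± 0.11, adjusted p = 7.5e-11). Of 9 named light signalling genes, 4 were higher and 1 was lower (the 1 named by the annotation did not pass the test). The fall, of BBX22, lost its call without 5 of the 6 arrays, left out in turn. PIF3 was higher (0.84 ± 0.12, adjusted p = 5.4e-05) and so was PKS1, a partner of phytochrome (0.76 ± 0.11, adjusted p = 3.2e-05). PIF1 had 0.42 (adjusted p = 0.01, not called), PIF5 -0.19 (0.28) and HY5, the transcription factor that promotes greening, 0.19 (0.2).

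Nuclear genes for photosynthesis stayed near wild type level, most of them slightly below it. Of 17 named genes of 46 listed, none was higher and 1, PSBY, was lower, with a median of -0.13 (none higher and 1 lower of the 8 named by the annotation). Log2 fold changes ran from -0.37 to 0.01 and were negative in 16 of the 17. The arrays of both genotypes did not overlap in 11 of them, against 43.4% of all probe sets. PSBY, a small photosystem II protein, measured 12.98, 12.88 and 12.97 in Ws-2 and 12.62, 12.59 and 12.51 in phyB-77 bri1-5 (-0.37 ± 0.08, adjusted p = 0.0025), and its call was lost without Ws-2 replicate 1 or 3 or phyB-77 bri1-5 replicate 2 or 3, where its log2 fold change was -0.38 to -0.33. LHCB6, an antenna protein, measured 13.06, 13.19 and 13.17 in Ws-2 and 13.16, 13.17 and 13.12 in phyB-77 bri1-5 (0.01, adjusted p = 0.97). Signals of these genes were among the highest on the array in both genotypes. None of the 4 named Calvin cycle genes passed the test (adjusted p under 0.01, limma).

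Genes encoded in the plastid genome, by contrast, were often higher. Of 69 named plastid genes, 24 were higher, 2 were lower and 43 did not pass the test, against 6.55% higher and 8.01% lower over all probe sets, and the median was 0.27. The 5 largest rises were those of 4 plastid ribosomal protein genes and of rpoC2, and 11 of the 24 rises fell on genes of the plastid ribosome or RNA polymerase. Among large ribosomal subunit genes 4 of 7 were higher (median 0.98), among small subunit genes 5 of 8 (0.45) and among RNA polymerase genes 2 of 4 (0.39). Of these, rpl16 measured 8.08, 8.13 and 7.98 in Ws-2 and 11.94, 11.87 and 12.07 in phyB-77 bri1-5 (3.90 ± 0.11, adjusted p = 8.8e-15) and rpl14 measured 6.76, 7.33 and 6.94 in Ws-2 and 9.97, 9.70 and 10.06 in phyB-77 bri1-5 (2.90 ± 0.15, adjusted p = 2.9e-11). The RNA polymerase gene rpoC2 rose by 1.78 (adjusted p = 1.9e-07), whereas rpoA had 0.03 (adjusted p = 0.84) and rpoB -0.09 (0.55). Members of 1 complex therefore differed widely.

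Plastid genes for photosynthesis were mixed. The Rubisco large subunit gene rbcL measured 8.95, 8.93 and 9.26 in Ws-2 and 10.83, 10.61 and 10.67 in phyB-77 bri1-5 (1.66 ± 0.13, adjusted p = 1.1e-08). Of 15 photosystem II genes 2 were higher, psbC (1.43 ± 0.10, adjusted p = 4.1e-09) and psbZ (0.85 ± 0.11, adjusted p = 1.4e-05), and 1 was lower, psbE (-0.73 ± 0.10, adjusted p = 1.6e-05), with a median of 0.15. The photosystem I reaction centre gene psaA measured 10.17, 10.46 and 10.61 in Ws-2 and 8.76, 8.88 and 9.0 in phyB-77 bri1-5 (-1.53 ± 0.14, adjusted p = 9.5e-08), the largest fall among the plastid genes. Its partner psaB had 0.33 (adjusted p = 0.017), and psaI rose by 0.99 (1.1e-06). Of 10 genes for the NADH dehydrogenase-like complex, ndhJ (1.5), ndhK (1.27) and ndhE (1.11) were higher and 7 did not pass the test, and of 6 ATP synthase genes atpH (1.43) and atpA (0.38) were higher. The call of atpA was lost without Ws-2 replicate 1 or 2 or phyB-77 bri1-5 replicate 1 or 3, where the log2 fold change ranged over 0.35 to 0.41 with each of the 6 arrays left out. Among 11 mitochondrion-encoded genes 4 were higher and none was lower. The cytochrome oxidase gene cox1 measured 7.76, 8.07 and 7.65 in Ws-2 and 11.47, 11.20 and 11.21 in phyB-77 bri1-5 (3.47 ± 0.14, adjusted p = 8.7e-13), and nad9, nad5 and nad4, of respiratory complex I, rose by 1.36, 1.34 and 1.03.

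**Figure D3:**
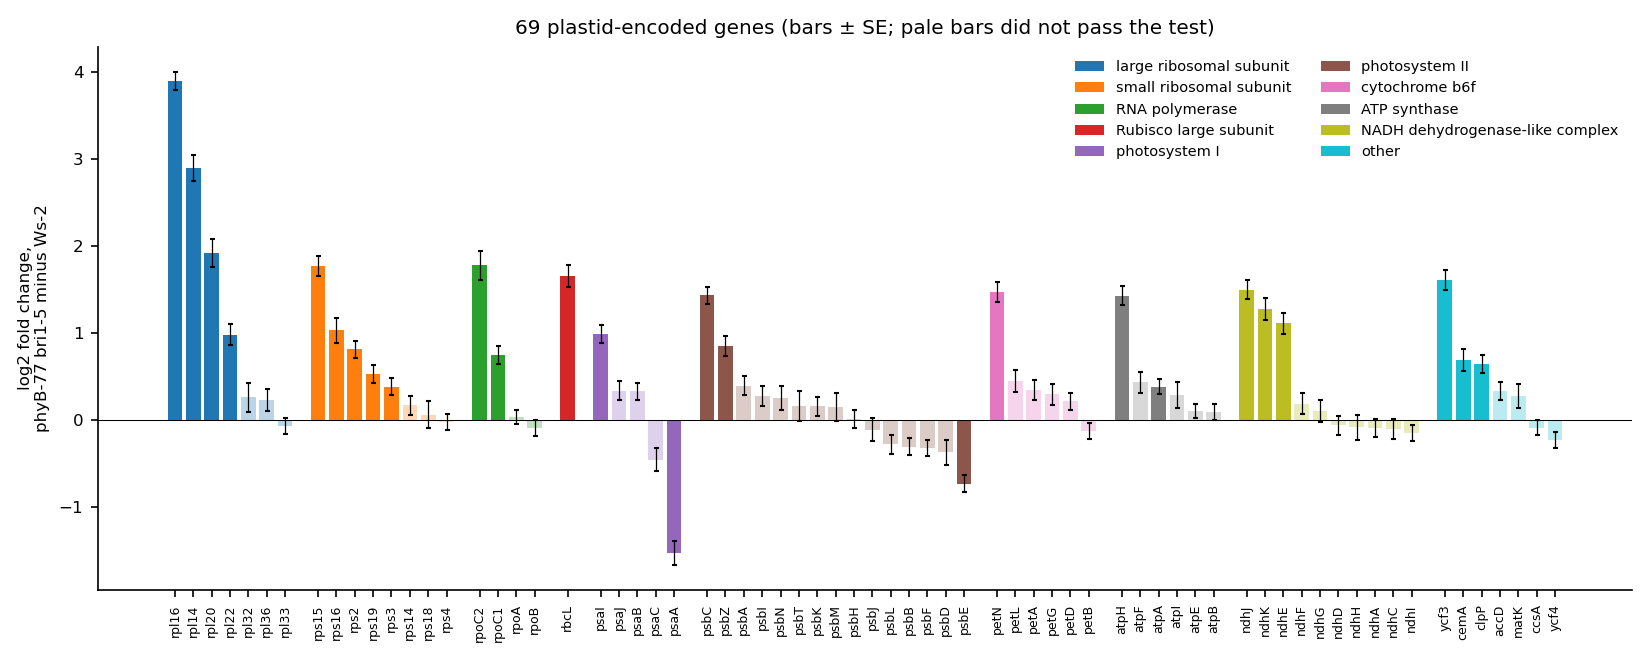
Log2 fold change between phyB-77 bri1-5 and Ws-2 (vertical, bars with their standard error) for 69 plastid-encoded genes, coloured by complex and ordered within it. Solid bars passed the test and pale bars did not. The tallest bars are rpl16 (3.90) and rpl14 (2.90), and psaA (-1.53) and psbE (-0.73) are the solid bars below 0.

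Growth-related genes moved in both directions. Of 12 named shade avoidance genes, which rise in plants shaded by neighbours, 6 were higher and 2 were lower (median 0.47; none higher and 2 lower of the 3 named by the annotation). HFR1, a bHLH protein that binds PIFs and holds growth back, measured 6.57, 6.59 and 6.65 in Ws-2 and 8.94, 9.12 and 9.15 in phyB-77 bri1-5 (2.47 ± 0.11, adjusted p = 5.3e-12). CKX5, which breaks down cytokinin, measured 5.63, 5.71 and 5.67 in Ws-2 and 7.72, 7.66 and 7.64 in phyB-77 bri1-5 (2.00 ± 0.12, adjusted p = 4.6e-10). The homeodomain gene HB-2 (1.2 ± 0.10, adjusted p = 3e-08) and PAR1, a second brake on shade growth (1.29 ± 0.10, adjusted p = 1.8e-08), rose too. By contrast HAT2, a close relative of HB-2, was lower at 8.30, 8.35 and 8.44 in Ws-2 and 7.48, 7.51 and 7.47 in phyB-77 bri1-5 (-0.88 ± 0.11, adjusted p = 6.3e-06), as was the auxin synthesis gene YUC2 (-0.85 ± 0.11, adjusted p = 7.2e-06), and IAA29 (0.05, adjusted p = 0.86), HAT1 (-0.14, 0.42) and YUC9 (-0.20, 0.32) did not pass the test.

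Auxin genes were lower more often than higher, 6 against 2 of 16 named (median -0.25; 3 lower and 2 higher of the 7 named by the annotation). The 4 named SAUR genes, early auxin targets that promote cell expansion, were all lower (the 1 named by the annotation among them). SAUR16 measured 8.12, 8.34 and 8.36 in Ws-2 and 5.45, 5.58 and 5.43 in phyB-77 bri1-5 (-2.79 ± 0.10, adjusted p = 9.7e-14), the second largest fall of all named genes, and SAUR14 measured 9.84, 9.95 and 9.88 in Ws-2 and 8.04, 8.01 and 8.13 in phyB-77 bri1-5 (-1.83 ± 0.09, adjusted p = 1.4e-11). SAUR9 fell by 1.53 (adjusted p = 4.9e-07) and SAUR10 fell by 1.18 (1.8e-06). IAA20, an Aux/IAA repressor, went the other way at 5.29, 5.43 and 5.16 in Ws-2 and 7.38, 7.38 and 7.42 in phyB-77 bri1-5 (2.1 ± 0.09, adjusted p = 2.7e-12), while GH3.6 (-0.07, adjusted p = 0.66) and the efflux carrier gene PIN3 (-0.06, 0.68) did not pass the test.

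Wall-loosening families were split. Of 24 named xyloglucan endotransglucosylase (XTH) genes, whose products cut and rejoin xyloglucan, 9 were higher and 4 were lower (median 0.08; 2 higher and none lower of the 9 named by the annotation). XTH25 measured 5.49, 5.82 and 5.33 in Ws-2 and 8.22, 8.19 and 8.11 in phyB-77 bri1-5 (2.63 ± 0.13, adjusted p = 1.6e-11) and XTH15 measured 10.86, 10.83 and 10.94 in Ws-2 and 13.16, 13.14 and 13.13 in phyB-77 bri1-5 (2.26 ± 0.08, adjusted p = 2.7e-13). XTH7 was the largest fall of the family, at 11.51, 11.33 and 11.49 in Ws-2 and 10.17, 10.26 and 10.13 in phyB-77 bri1-5 (-1.25 ± 0.10, adjusted p = 1.2e-08). Of 16 named expansin genes, 4 were higher and 7 were lower (median -0.31; 2 higher and 5 lower of the 12 named by the annotation). Of the rises, 1 lost its call whichever of the 6 arrays was left out. EXPA2 measured 5.23, 5.23 and 5.31 in Ws-2 and 7.32, 7.34 and 7.25 in phyB-77 bri1-5 (2.05 ± 0.12, adjusted p = 4e-10), whereas EXPB3 measured 8.26, 8.04 and 8.08 in Ws-2 and 6.51, 6.46 and 6.44 in phyB-77 bri1-5 (-1.66 ± 0.11, adjusted p = 1.6e-09) and EXPA1 changed by -1.18 ± 0.10, adjusted p = 4.1e-08. Hence 2 alpha-expansins, EXPA2 and EXPA1, changed in opposite directions by more than 2-fold each. Of 29 class III peroxidase genes, enzymes that can stiffen the wall, none was higher and 4 were lower (13.8%; 2 lower of the 23 named by the annotation), a share near the 15.6% of all named genes called in either direction. PRX71 was the largest of these falls (-1.67 ± 0.10, adjusted p = 2.9e-10). The peroxidase genes PRX2, whose probe set may also bind relatives, and PRX73 had 0.49 (adjusted p = 0.012) and 0.19 (0.13), and ENODL1, an early nodulin-like cell surface protein, fell at 7.22, 7.42 and 7.12 in Ws-2 and 6.07, 6.13 and 6.09 in phyB-77 bri1-5 (-1.16 ± 0.17, adjusted p = 3.8e-05).

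Several BR genes were higher than in Ws-2. None of the BR genes was named by the annotation, so that all counts here rest on names from the study's tables, where 29.5% of probe sets were higher. Of 4 named synthesis genes, 3 were higher. DWF4, a rate-limiting hydroxylase, measured 7.48, 7.78 and 7.56 in Ws-2 and 8.63, 8.71 and 8.74 in phyB-77 bri1-5 (1.09 ± 0.11, adjusted p = 4.8e-07), CYP85A2, which makes brassinolide, rose by 1.35 (adjusted p = 1.6e-07) and CPD by 0.47 (0.001), while CYP90D1 had 0.34 (0.04, not called). In bri1-5 all 4 synthesis genes were higher than in Ws-2 (median 0.99), against 10.5% of all probe sets. In the double mutant 3 of them were lower than in bri1-5 and none was higher (median -0.59), against 11.6% of all probe sets lower. Against phyB-77, 2 were higher in the double mutant and none was lower. Of 5 BR response genes 3 were higher than in Ws-2 and none was lower. IBH1, a bHLH protein that holds back elongation, was higher (0.68 ± 0.14, adjusted p = 0.0012), and PRE3, an antagonist of that group, was at 6.72, 6.61 and 6.71 in Ws-2 and 6.69, 6.66 and 6.69 in phyB-77 bri1-5 (log2 fold change 0.00, adjusted p = 1). Gibberellin genes gave 3 higher and 2 lower of 10 named (none higher and 1 lower of the 3 named by the annotation), led by the synthesis gene GA20OX3 (1.19 ± 0.11, adjusted p = 1.9e-07) and GASA4 (0.82 ± 0.08, adjusted p = 5.6e-07). Ethylene genes gave 3 higher and 1 lower of 4, all named through the study's tables, among them the synthesis gene ACS6 (0.96 ± 0.08, adjusted p = 5e-08) and HLS1, which keeps the apical hook closed (1.23 ± 0.11, adjusted p = 1.1e-07). Both gibberellin falls lost the call with single arrays left out, GA2OX1 without 4 of the 6 and GID1B without 3. The ethylene fall, of ACS8, lost it without 5.

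Genes of glucosinolate metabolism, which makes the defence compounds of the cabbage family, were lower. Of 10 named glucosinolate genes out of 33 listed, 9 were lower and none was higher, with a median of -0.92 (3 lower of the 4 named by the annotation), against 7.32% of named genes called lower. BCAT4, the aminotransferase that starts the lengthening of methionine side chains, measured 7.47, 7.54 and 7.67 in Ws-2 and 5.23, 5.35 and 5.27 in phyB-77 bri1-5 (-2.28 ± 0.11, adjusted p = 8.9e-12). ESM1, which steers the breakdown of glucosinolates, measured 7.58, 7.75 and 7.69 in Ws-2 and 5.35, 5.21 and 5.36 in phyB-77 bri1-5 (-2.36 ± 0.12, adjusted p = 3.9e-11). FMO_GS-OX1, which oxidizes the side chain, was at 6.07, 5.77 and 6.23 in Ws-2 and 3.78, 3.87 and 3.91 in phyB-77 bri1-5 (-2.17 ± 0.12, adjusted p = 7.1e-11). All 3 fell by more than 4-fold. MYB28, the transcription factor of the aliphatic branch, measured 7.65, 7.69 and 7.90 in Ws-2 and 6.48, 6.48 and 6.49 in phyB-77 bri1-5 (-1.27 ± 0.10, adjusted p = 1e-08). IPMI1, an isopropylmalate isomerase subunit outside the list, fell at 8.40, 8.52 and 8.46 in Ws-2 and 6.31, 6.44 and 6.44 in phyB-77 bri1-5 (-2.07 ± 0.11, adjusted p = 5.3e-11). The smallest called fall was that of CYP79B2, of the indole branch, at -0.38 ± 0.09, adjusted p = 0.0036, and that call was lost when Ws-2 replicate 1 or any of the 3 double mutant arrays was left out (log2 fold changes from -0.41 to -0.34 over the 6 arrays). AOP3 had -0.05 (adjusted p = 0.84).

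Jasmonate genes included 3 falls and 1 rise among 8 named. Of the 4 named by the annotation 1 was higher and none was lower, so that all 3 falls were of genes named through the study's tables, where 18.6% of probe sets were lower. VSP1, a vegetative storage protein that jasmonate raises, measured 6.68, 6.85 and 6.80 in Ws-2 and 4.30, 4.43 and 4.32 in phyB-77 bri1-5 (-2.43 ± 0.13, adjusted p = 1e-10) on a probe set that may also bind a close relative. LOX2, the plastid lipoxygenase of jasmonate synthesis, measured 8.82, 8.88 and 8.88 in Ws-2 and 7.64, 7.62 and 7.51 in phyB-77 bri1-5 (-1.27 ± 0.10, adjusted p = 1.4e-08), and AOS, the next enzyme, fell by 0.71 (adjusted p = 4.2e-05). Both steps fell, whereas PDF1.2, a defensin gene, had 0.00 (adjusted p = 1). The 1 rise was that of PDF1.2b (0.91), on a probe set that may also bind relatives. Its call was lost without Ws-2 replicate 1 or 3 or phyB-77 bri1-5 replicate 2 or 3. The log2 fold change of PDF1.2b was 0.88 to 0.95 over the 6 fits. PCC1, known for control by pathogens and the clock, measured 8.35, 8.52 and 8.97 in Ws-2 and 6.69, 6.51 and 6.46 in phyB-77 bri1-5 (-2.06 ± 0.13, adjusted p = 6.2e-10). WRKY70 (0.82) and FMO1 (0.69), of salicylic acid defence, were the 2 named genes of that list and were higher, the former with adjusted p = 0.0014. Both were named through the study's tables, where 29.5% of probe sets were higher. The call of WRKY70 was lost without Ws-2 replicate 3 or phyB-77 bri1-5 replicate 3, and its log2 fold change lay between 0.67 and 0.90 over the 6 arrays left out in turn.

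Surface lipid genes, which act in the epidermis, fell as well, 7 of 10 named, with 2 higher (median -0.58; the 1 named by the annotation, WSD1, had -0.10, adjusted p = 0.61). All others were named through the study's tables, where 18.6% of probe sets were lower and 29.5% higher. CYP96A15, the midchain alkane hydroxylase of stem wax, measured 7.63, 7.48 and 7.46 in Ws-2 and 4.47, 4.78 and 4.61 in phyB-77 bri1-5 (-2.91 ± 0.11, adjusted p = 3e-13), the largest fall of all named genes. KCS6, an elongase of very long chain fatty acids, fell by 0.75 (adjusted p = 7.1e-06). Beside these falls the epidermis markers TMM and FAMA had -0.43 and -0.39 (adjusted p = 0.054 for the latter), and their part in the falls was not tested. Lipid transfer protein genes diverged, with LTP4 at 8.55, 8.65 and 8.61 in Ws-2 and 6.79, 6.96 and 6.75 in phyB-77 bri1-5 (-1.77 ± 0.10, adjusted p = 2.3e-10) and LTP2 at 12.70, 12.75 and 12.78 in Ws-2 and 13.97, 13.97 and 13.96 in phyB-77 bri1-5 (1.22 ± 0.08, adjusted p = 1.7e-09). Flavonoid genes were lower in 7 and higher in 2 of 15 named (median -0.34; 4 lower and none higher of the 7 named by the annotation). DFR, the first enzyme of the anthocyanin branch, measured 6.14, 5.98 and 6.16 in Ws-2 and 5.31, 5.02 and 5.11 in phyB-77 bri1-5 (-0.95 ± 0.12, adjusted p = 6.3e-06), and GSTF12, needed to bring anthocyanin to the vacuole, changed by -0.97 ± 0.10, adjusted p = 4.1e-07. CHS, the first enzyme of the pathway, was higher at 9.22, 9.18 and 9.14 in Ws-2 and 9.70, 9.75 and 9.74 in phyB-77 bri1-5 (0.55 ± 0.09, adjusted p = 0.00017). Also at or near the start of the pathway, PAL1 (-0.50 ± 0.08, adjusted p = 0.00019) and F3H (-0.68 ± 0.10, adjusted p = 3.4e-05) were lower, though not every such gene passed the test.

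The remaining leading falls had no list in common. At3g21670, of the nitrate and peptide transporter family, measured 9.84, 9.79 and 9.71 in Ws-2 and 7.34, 7.38 and 7.43 in phyB-77 bri1-5 (-2.39 ± 0.09, adjusted p = 1.8e-13). At1g14210 changed by -2.38 ± 0.11, adjusted p = 7.6e-12, and MAC3B, of a complex tied to the spliceosome, by -2.17 ± 0.10, adjusted p = 7.6e-12. RGF9, a peptide hormone precursor named for root meristem growth, measured 5.44, 5.9 and 5.59 in Ws-2 and 3.06, 3.70 and 3.45 in phyB-77 bri1-5 (-2.24 ± 0.14, adjusted p = 5.6e-10). Its 3 arrays were uneven in both genotypes.

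Smaller lists gave fewer changes. The 4 named genes for low energy and nitrogen, all named through the study's tables, were higher, led by DYL1, a dormancy-associated gene (1.07 ± 0.08, adjusted p = 1.9e-08), and SEN1, which darkness induces (1.02 ± 0.11, adjusted p = 1.2e-06). Of all probe sets named only through those tables, 29.5% were higher and 18.6% lower. In ribosome biogenesis 4 of 9 were higher and none was lower, with NAP57, the pseudouridine synthase of the nucleolus, at 6.40, 6.29 and 6.40 in Ws-2 and 7.96, 7.92 and 7.89 in phyB-77 bri1-5 (1.56 ± 0.09, adjusted p = 2.4e-10), but none of the 5 members named by the annotation passed the test. The iron uptake transporter gene IRT1 was lower (-1.0 ± 0.14, adjusted p = 2.1e-05), and its regulators BHLH39 (-0.01, adjusted p = 0.95) and BHLH101 (-0.05, 0.85) did not pass the test. Of 5 cell division genes 2 were lower, both named through the study's tables, CYCB1;4 (-0.79 ± 0.10, adjusted p = 7.8e-06) and CDKB2;1 (-0.50 ± 0.10, adjusted p = 0.00076). CASP1, of the Casparian strip, was 1 of the 2 root genes that fell, none of them among the 4 named by the annotation (-0.65 ± 0.09, adjusted p = 3.7e-05), and the abundant root protein PYK10 had -0.08 (adjusted p = 0.62). No cellulose synthesis or vessel gene of the 5 named passed the test, nor did either vascular marker. Clock genes gave 1 fall and no rise among 8 named (the fall was of the 1 named by the annotation). That fall, of GI, lost its call without Ws-2 replicate 1 or phyB-77 bri1-5 replicate 3.

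**Figure D4:**
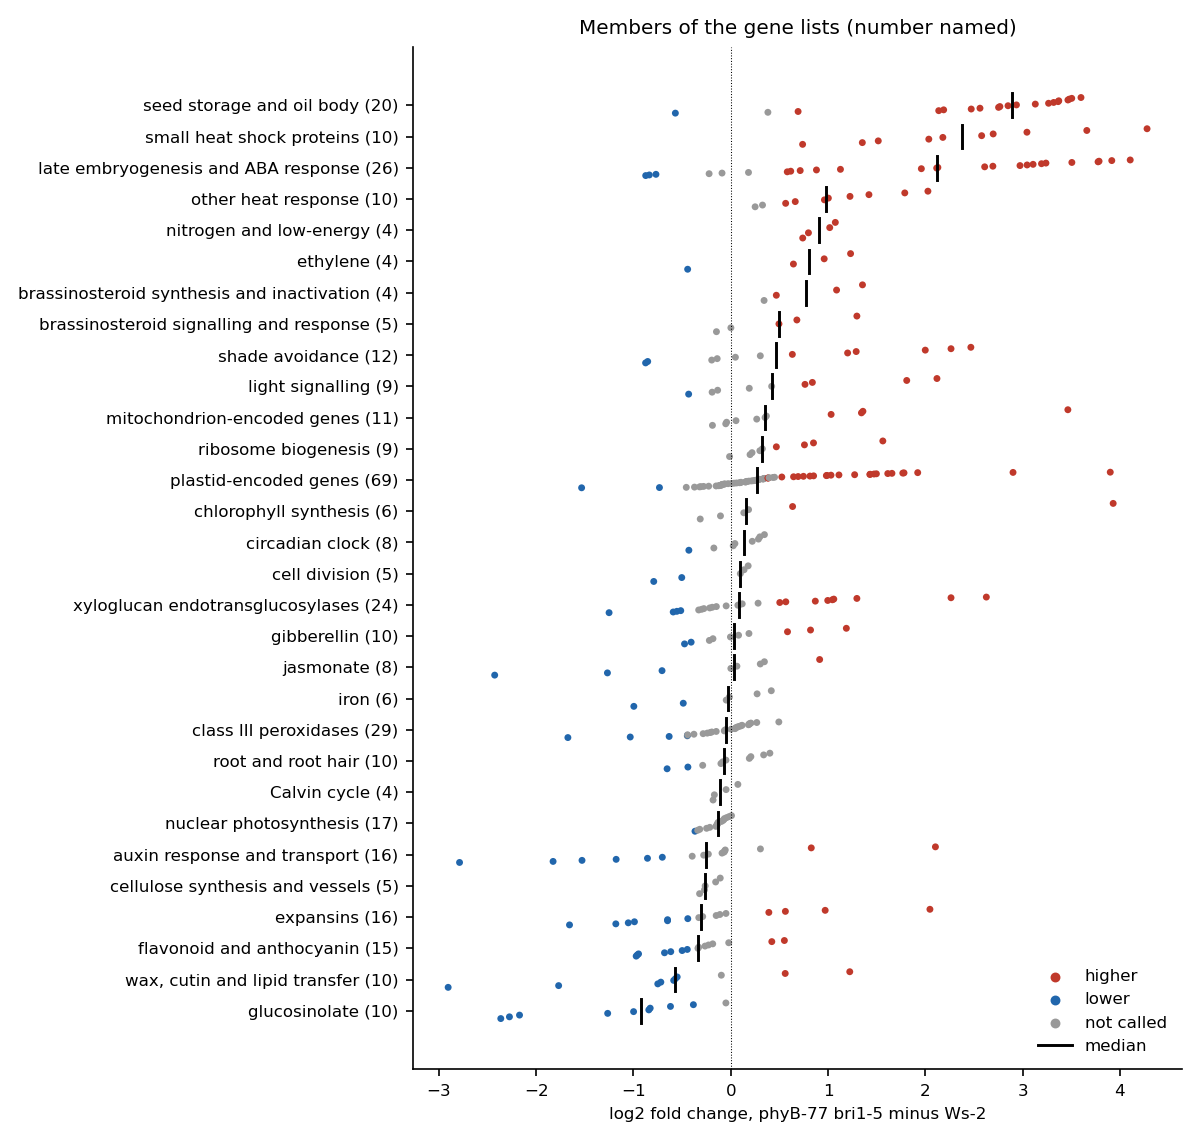
Log2 fold change between phyB-77 bri1-5 and Ws-2 (horizontal) for each named member of the gene lists with 4 or more named genes (rows, number named in parentheses). Red points passed the test upward, blue points downward and grey points not at all, and the black tick is the list's median, from 2.89 for seed storage and oil body genes to -0.92 for glucosinolate genes.

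The same lists are set beside the values of the single mutants, which share the Ws-2 arrays with the double mutant, so that the columns against Ws-2 are not independent of each other. For small heat shock genes the median was 1.88 in phyB-77, -0.01 in bri1-5 and 2.38 in the double mutant. For seed storage and oil body genes it was 3.42, -0.19 and 2.89. For plastid genes the medians were 0.06, 0.41 and 0.27. Direct tests give the differences: over all probe sets 16.0% differed between the double mutant and phyB-77 (6.44% higher and 9.51% lower in the double mutant) and 19.4% between the double mutant and bri1-5 (7.77% higher and 11.6% lower). All 10 small heat shock genes were higher in the double mutant than in bri1-5, and 3 were higher and 1 lower than in phyB-77. Of 20 seed genes, 19 were higher than in bri1-5 and none lower, and 13 were lower than in phyB-77 and none higher (11 lower with array medians centred). Of 69 plastid genes, 22 were higher and 4 lower than in phyB-77, and 3 higher and 13 lower than in bri1-5. rpl16, for example, had 1.04 in phyB-77, 4.02 in bri1-5 and 3.90 in the double mutant, which did not pass the test against bri1-5 (adjusted p = 0.45).

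Other groups that changed in a single mutant had medians closer to Ws-2 in the double mutant. Single-mutant calls are read against 15.3% of all probe sets called in phyB-77 (8.56% higher and 6.77% lower) and 19.1% in bri1-5 (10.5% higher and 8.61% lower). Root and root hair genes had a median of -1.40 in phyB-77 (8 of 10 lower), 0.85 in bri1-5 (8 higher, 1 lower) and -0.07 in the double mutant, where 7 were higher than in phyB-77 and 8 lower than in bri1-5. PRP3, a proline-rich wall protein of root hairs, measured 7.63, 7.85 and 7.85 in Ws-2 and 8.07, 8.06 and 8.21 in phyB-77 bri1-5, with log2 fold changes of -2.21 in phyB-77, 1.02 in bri1-5 and 0.34 in the double mutant (adjusted p = 0.025, not called). Nuclear photosynthesis genes were lower in phyB-77 in 17 of 17 (median -0.58) and in 1 of 17 in the double mutant, where 10 were above their level in phyB-77 (14 with array medians centred and 9 after quantile normalization) and none passed the test against bri1-5. Flavonoid genes had a median of 1.32 in phyB-77, 0.00 in bri1-5 and -0.34 in the double mutant, where 15 of 15 were below their level in phyB-77 (14 with array medians centred or after quantile normalization). Against bri1-5, 7 of the 15 were lower and 3 were higher in the double mutant (median -0.34). PAP1, the MYB regulator of anthocyanin, had 2.83 in phyB-77, -0.92 in bri1-5 and -0.26 in the double mutant (adjusted p = 0.12). ELIP2 showed a partial version, with 4.84, 0.07 and 2.12, and the double mutant lay below phyB-77 (adjusted p = 1.1e-11) and above bri1-5 (1.3e-10).

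Some falls were larger in the double mutant than in either single mutant. SAUR16 had -2.27 in phyB-77, -1.02 in bri1-5 and -2.79 in the double mutant, lower than phyB-77 (adjusted p = 0.0005) and lower than bri1-5 (8.2e-11). All 4 SAUR genes were lower in the double mutant than in phyB-77, and 2 were lower than in bri1-5. At3g21670 had -0.80, -0.99 and -2.39 (adjusted p = 2.6e-10 against phyB-77 and 4.8e-10 against bri1-5), and RGF9 had -0.73, -0.78 and -2.24 (2.4e-07 and 2.3e-07). Among rises, HFR1 had 1.4, 0.95 and 2.47 (1.1e-06 and 7.4e-09) and CKX5 1.26, 0.49 and 2.00 (0.0002 and 2.7e-08). HFR1 and CKX5 did not stand for all 12 named shade avoidance genes. Of the 12, 11 were higher and 1 lower in bri1-5 than in Ws-2. In the double mutant 3 were higher and 5 lower than in bri1-5, and 6 higher and 1 lower than in phyB-77. The interaction term, which asks whether the double mutant departs from the sum of both single changes, was called at 13.8% of all probe sets, 4.82% above 0 and 8.93% below. That split of 1097 above and 2031 below 0 turned to 1659 and 1474 with array medians centred, which moved the median of the term over all probe sets from -0.05 to 0.05. Among the 24 leading genes of the double mutant the term was called for 7 of the 12 rises and 9 of the 12 falls. Those genes were picked by double mutant and Ws-2 values that the term reuses, so these counts are not comparable with the share over all probe sets. For CYP96A15 and FMO_GS-OX1, 2 of these falls, the sum of the single changes lay below the lowest signal of any array, so that a term above 0 was fixed.

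**Figure D5:**
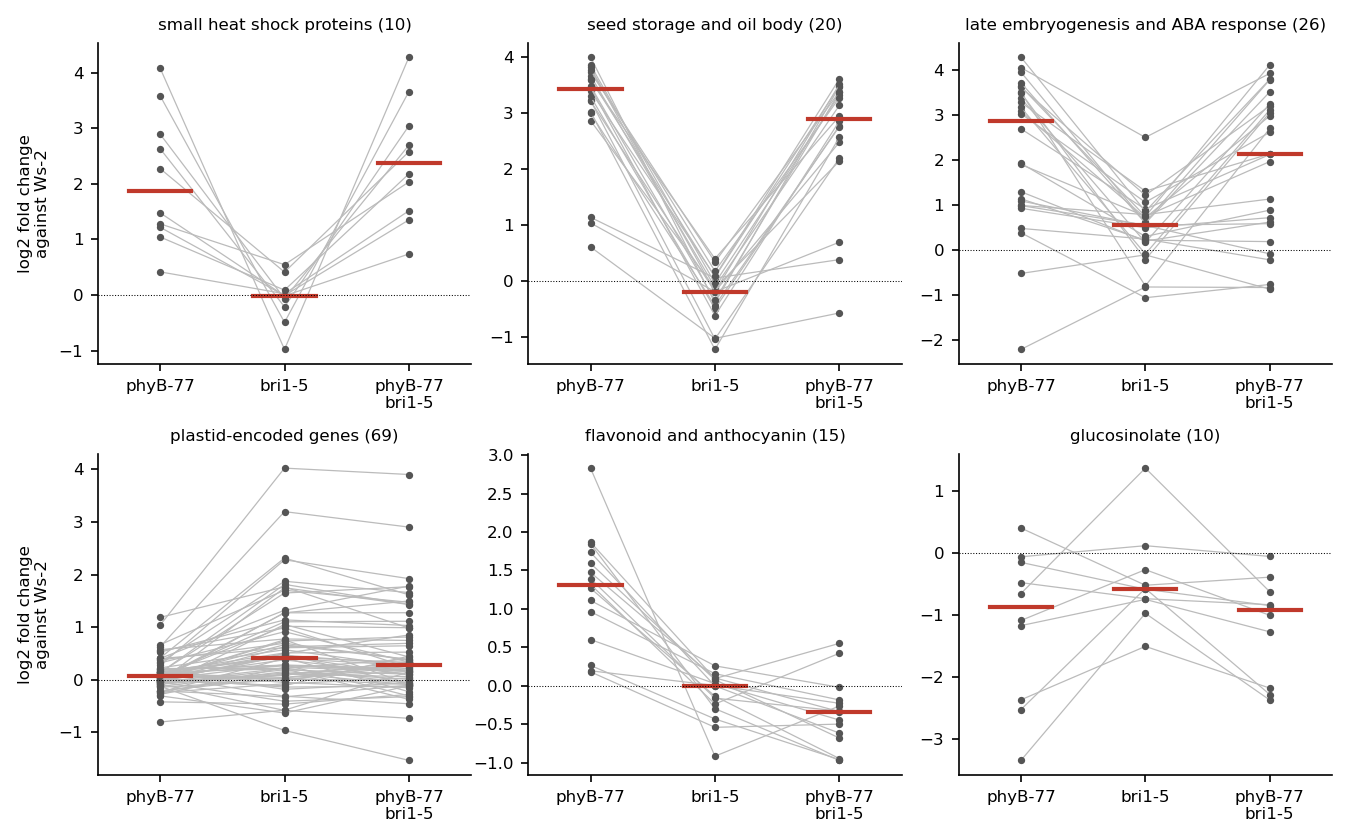
Log2 fold change against Ws-2 (vertical) in each single mutant and in the double mutant for the named members of 6 gene lists, each grey line 1 gene and each red bar the median. Medians for seed storage genes are 3.42, -0.19 and 2.89, and for flavonoid genes 1.32, 0.00 and -0.34; the 3 comparisons share the Ws-2 arrays.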

How the data were processed

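RNA of whole seedlings was hybridised to 1-colour Affymetrix ATH1 arrays, 12 in all, with biological triplicates per the study's methods. The deposited values were log2 signals per probe set that the authors had made by RMA, which corrects background, quantile-normalizes and summarizes the probes of a set. The version of the RMA software is not given in the sources used here. Quantile normalization fixes the overall distribution, so that a shift of most transcripts would not be seen.

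Groups were taken from the array titles. After removal of 64 control probe sets, the 22746 others were fitted with limma 3.58.1 (R 4.3.3) over all 12 arrays with 1 mean per genotype, using 8 residual degrees of freedom. A probe set was called at a Benjamini-Hochberg adjusted p under 0.01, and every adjusted p in the text is from this fit over all probe sets. Errors after ± are standard errors of the log2 fold change (n = 3 arrays per genotype). The fit was tested on simulated data. Python 3.11.15 (pandas 2.3.3, matplotlib 3.10.9) served for tables and plots. Genes were named from the platform annotation and, where it gave none, from gene tables of the study. For a gene with several probe sets, that of the highest mean was used.

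The genes named were the 12 largest rises and the 12 largest falls among called, non-overlapping probe sets with a single gene name, up to 6 members of each list with the smallest and up to 3 with the largest adjusted p, and genes the study names for its arrays. COR15A, COR15B, RD22, RAB18, RD29B, YUC2 and PAL1 fall outside this rule and were chosen after their values were seen. The members and lists were chosen with earlier results of these data known. Alternatives were other scalings, thresholds, filters, variance models, array weights, a replicate block and leaving out arrays. Sequences were not used here.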

Additional observations from a re-analysis of the deposited data

Results flagged for a closer look

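For 16 of the 24 leading genes the effect of losing phytochrome B function was not the same in bri1-5 seedlings as in wild type seedlings by limma's interaction term, on the log2 scale and as the first effect minus the second, against 13.8% of all probe sets called for that term. These genes were picked for large changes between the double mutant and Ws-2, values that the term also uses. Their share is therefore not comparable with that of all probe sets. Among genes that rose in the double mutant, the value was negative for PORA (-1.36 ± 0.15, adjusted p = 2.7e-06), At3g15670 (-2.62 ± 0.14, adjusted p = 1.9e-09), At2g21490 (-1.07 ± 0.17, adjusted p = 0.00015), rpl16 (-1.16 ± 0.15, adjusted p = 2.1e-05), ECP63 (-1.34 ± 0.18, adjusted p = 2.4e-05) and ATOEP16-2 (-0.84 ± 0.19, adjusted p = 0.0036). It was positive for HSP17.6A (1.17 ± 0.13, adjusted p = 5.3e-06). Among genes that fell, it was positive for CYP96A15 (2.43 ± 0.15, adjusted p = 7.4e-09), VSP1 (0.82 ± 0.19, adjusted p = 0.0041), ESM1 (1.94 ± 0.17, adjusted p = 4.1e-07), BCAT4 (0.81 ± 0.15, adjusted p = 0.00073), FMO_GS-OX1 (1.69 ± 0.16, adjusted p = 1.1e-06), IPMI1 (1.12 ± 0.15, adjusted p = 3.9e-05) and PCC1 (2.16 ± 0.18, adjusted p = 2.2e-07), and negative for At3g21670 (-0.61 ± 0.12, adjusted p = 0.0012) and MAC3B (-0.81 ± 0.14, adjusted p = 0.00041). At3g15670 shows how such a value arises. In phyB-77 it stood 4.04 above Ws-2 on the log2 scale, bri1-5 stood 2.5 above it, and the double mutant 3.92, less than the sum of the single values. The sums of the single changes would put CYP96A15 at a signal of 2.18 and FMO_GS-OX1 at 2.16, below the lowest signal of any array (2.36). For these 2 genes the double mutant could not reach the sum, so that the range of the signals fixed the positive sign. That sign by itself shows nothing about the mutations. The full size of the term was not fixed by the range, as the double mutant means (4.62 and 3.85) lay above the lowest signal.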

How the results depend on the processing

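The 3311 calls (1489 higher, 1822 lower) became 5191 (2265 and 2926) with array weights, 5157 (2243 and 2914) at an adjusted p under 0.05 and 1710 (847 and 863) with a fold change above 1.5 required. With 1 probe set per named gene there were 2327 calls, of which 1094 were lower, so that 53.0% of calls were higher in place of 45.0%, with fewer probe sets tested. Leaving out 1 array at a time gave 2320 to 2667 calls, 1093 to 1220 higher and 1227 to 1461 lower, with fewer samples, and 2056 probe sets were called in all 6 such fits. Centring array medians (3330), quantile normalization (3338), leaving out the 40% dimmest probe sets (3090), control probe sets kept (3318), trended robust variance (3468) and only the 6 arrays compared (4557) kept the count within 1.5 times. No listed result reversed. The 24 leading genes kept direction and call in every setting run. Of 217 called list or leading genes, 26 lost the call without some array. List counts of 5 or more kept within 1.5 times, except small ribosomal subunit genes of the plastid, 5 to 3 with the fold required, and smaller counts moved in other settings too (nuclear photosynthesis, lower, 1 to between 0 and 3). Interactions of leading genes numbered 16, and 15 to 18 without 1 array, and the term could not be given from only the 6 arrays compared.

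Replicate numbers are shared by the labels of both genotypes, but same-numbered arrays did not deviate together (correlations of 0.071, 0.054 and -0.0056). Differently numbered arrays had correlations from -0.13 to 0.078. A batch shared in another order would not show here and was not tested. With the replicate block 3213 probe sets were called, 1450 higher and 1763 lower, and 17 leading genes had an interaction. The number of arrays, 3 per genotype, limits the precision.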
